A study of Oryzias latipes with 27 samples.

Results

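At 10 days post hatch (D10), the RNA of 2 kinds of phenotypic female medaka (Oryzias latipes) was compared, and the report covers these 6 of the 27 RNA-seq libraries of the series. The members were chosen by their labels: 3 libraries of WT_Fe_Ov, which are wild-type XX females, and 3 libraries of MT_Fe_Ov, which are XY females with a disrupted DMY gene. The disruption was made with TALENs, programmable nucleases that cut a chosen DNA sequence, and was kept as an inherited line. The genetic background of the 2 lines and the number of fish in a library are not given in the sources used here. The sample titles call the MT_Fe_Ov fish male, while the sex and tissue fields call them female and ovary. The genotype of MT_Fe_Ov rests on these labels, since no symbol for DMY or dmrt1 was found in the tables.

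DMY is the male-determining gene on the medaka Y chromosome, a copy of dmrt1 that acts in the somatic cells of the gonad. In XY embryos it raises gsdf, a growth factor of the supporting cells, and the gonad becomes a testis, while gonads without DMY activity follow the ovarian course. Around this age the ovary holds dividing germ cells and early meiotic oocytes, and follicles are only beginning to form.

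The labelled tissue was checked against marker genes. The gene lists used here and below were chosen with earlier results of these data known. According to the study's methods, the D10 samples of all groups were trunk tissue around the gonadal primordium, without head and tail, and the levels of other tissues' genes were high in every library. The 11 skeletal muscle genes found in the table summed to between 13270 and 20935 CPM (counts scaled to a common library size) in the 6 libraries, and the 23 germ cell and oocyte genes to between 47.7 and 117 CPM. The 10 genes of ovarian somatic cells summed to between 36 and 70.4 CPM. In such bulk samples, fewer cells of a type and less RNA per cell cannot be told apart.

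The 6 libraries held between 10660310 and 13941804 counted read pairs, and each MT_Fe_Ov library was deeper than each WT_Fe_Ov library, so that depth and group cannot be told apart. WT_Fe_Ov replicates 1 and 3 were the most similar pair, at 1.99 times sampling noise, and the other pairs within a group were between 4.94 and 14.1 times. The labels call the libraries biological replicates without saying how many fish each holds, and p-values measure the spread between these libraries.

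The comparison of WT_Fe_Ov with MT_Fe_Ov asks which genes differ between ovaries of different sex chromosomes and DMY status. Of 24605 genes tested, 92 were differentially expressed genes (DEGs), or 0.374%. To be a DEG, a gene needed a Benjamini-Hochberg adjusted p no higher than 0.05, from the quasi-likelihood test of edgeR, and a log2 fold change of 1 or more in size. Higher in WT_Fe_Ov were 35 genes (0.142% of those tested), and higher in MT_Fe_Ov were 57 genes (0.232%). Fold changes are given as WT_Fe_Ov over MT_Fe_Ov on the log2 scale, so that a negative value means a higher level in MT_Fe_Ov. The median log2 fold change was 1.42 over the DEGs higher in WT_Fe_Ov, -1.25 over those higher in MT_Fe_Ov and 0.02 over all genes tested. The groups did not overlap in any of the 92 DEGs, and over all genes 13.4% had every WT_Fe_Ov library above every MT_Fe_Ov library and 12.3% the reverse.

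Both sets were mostly protein coding. The DEGs higher in WT_Fe_Ov included 28 protein coding genes, 5 long non-coding RNAs (lncRNAs), 1 pseudogene and 1 miRNA gene. Those higher in MT_Fe_Ov included 55 protein coding genes, 1 lncRNA and 1 pseudogene. Only 7 and 24 genes, respectively, carry a gene symbol, and the rest are known by a LOC number to which no name was given here.

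Many DEGs were near the threshold, with an adjusted p between 0.04 and 0.05 for 18 of the 35 and 31 of the 57. The count fell to 0 without WT_Fe_Ov replicate 3, to 4 without replicate 1 and to 5 without replicate 2, while it was 118, 6 and 195 without MT_Fe_Ov replicates 1, 2 and 3. No gene higher in MT_Fe_Ov was called when any WT_Fe_Ov library was left out, while all kept their sign. With WT_Fe_Ov replicate 3 left out, 2785 genes had an unadjusted p under 0.05, against 4638 in the fit of the 6 libraries. DESeq2 called 415 genes, among them all 92, and every DEG kept its sign in each of the 17 alternative settings. Since the groups did not overlap in any DEG, a fit without 1 library could hardly turn a sign. Settings with another threshold reuse the same fold changes. Scaling by library totals gave 60 genes higher in WT_Fe_Ov and 45 higher in MT_Fe_Ov, a share of 57.1% higher in WT_Fe_Ov against 38% here.

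**Figure D1:**
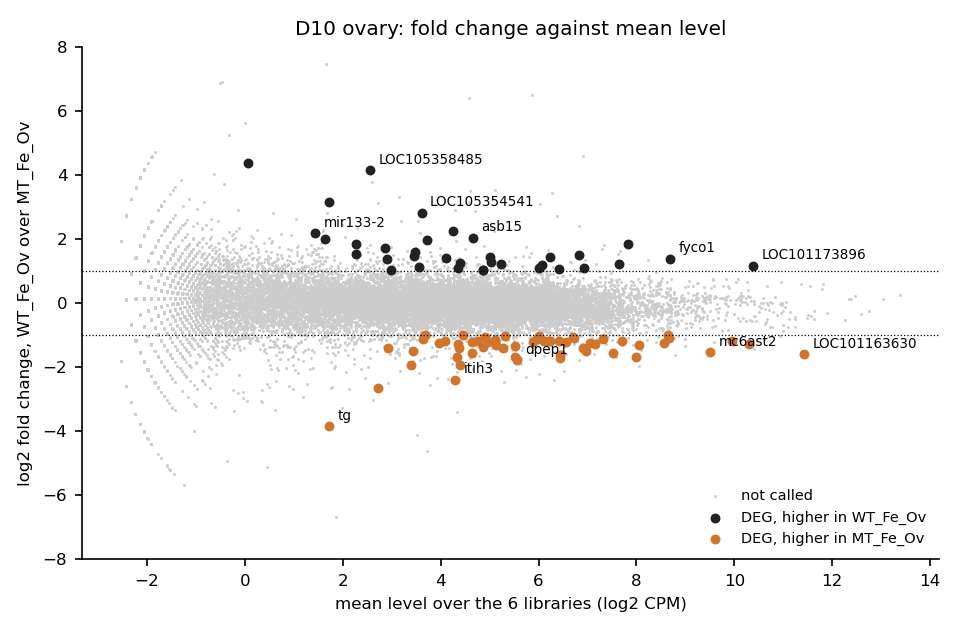
Log2 fold change (WT_Fe_Ov over MT_Fe_Ov) against the mean level in log2 CPM for the genes tested at D10, with 1 point per gene and dotted lines at the fold threshold of 1. The 35 DEGs higher in WT_Fe_Ov (black) include LOC105358485 and LOC105354541 high above the line, and the 57 higher in MT_Fe_Ov (orange) reach down to tg.

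The strongest call by p among protein coding genes was asb15, an ankyrin repeat and SOCS box gene that is known from mammals to be expressed in skeletal muscle. Its levels were 16.2, 17.3 and 16.6 FPKM (fragments scaled by exon length and by library size) in WT_Fe_Ov replicates 1 to 3 and 4.18, 3.71 and 3.50 FPKM in MT_Fe_Ov. The replicates of each group lay close together, and the log2 fold change was 2.04 (SE 0.14, adjusted p = 0.00360). The gene is on chromosome 23 from 13574606 to 13581193 of ASM223467v1, the build used for all positions here. Without WT_Fe_Ov replicate 3, its adjusted p was 0.0558 at a log2 fold change of 2.05, and over all settings the adjusted p ranged from 1.34e-24 to 0.262.

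fyco1, an adaptor that links autophagosomes to microtubule transport, had 101, 96.1 and 97.4 FPKM in WT_Fe_Ov and 33.6, 37.5 and 35.1 FPKM in MT_Fe_Ov. The means differed by far more than the SDs, at 98.2 ± 2.55 and 35.4 ± 1.95 FPKM (SD, n = 3), with a log2 fold change of 1.39 (SE 0.11, adjusted p = 0.00821). It and the other DEGs outside the naming rule were chosen after their values were seen, mostly because a gene symbol allows a description.

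mir133-2 is the gene of a miRNA known for its expression in skeletal and heart muscle. The poly(A) libraries count fragments of its locus, not the mature miRNA. The counts were 54, 36 and 62 in WT_Fe_Ov and 10, 11 and 16 in MT_Fe_Ov, so that each library of the first group was above each of the second. The log2 fold change was 2.18 (SE 0.31, adjusted p = 0.0411).

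These calls stood beside a muscle list in which no gene was called. The 11 skeletal muscle genes had a median log2 fold change of 0.19, and 8 were above 0, against 52% of all genes. At an unadjusted p under 0.05, 3 were above 0, against 8.82% of all genes, and 1 was below 0, against 10% of all genes. The median of the list was 0.03, with 6 above 0, without WT_Fe_Ov replicate 1, 0.34 without WT_Fe_Ov replicate 2 and 0.12 without MT_Fe_Ov replicate 2 or 3. Their summed levels overlapped, at 14826 to 20935 CPM in WT_Fe_Ov and 13270 to 17373 CPM in MT_Fe_Ov. The part of muscle tissue in the difference of asb15 and mir133-2 was not tested.

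The other DEGs with a symbol that were higher in WT_Fe_Ov were bche, aspn, wipf3 and aven. bche encodes butyrylcholinesterase, a secreted enzyme that splits choline esters, and had 59.1, 40.4 and 55.2 FPKM in WT_Fe_Ov against 18.8, 25 and 25.1 FPKM in MT_Fe_Ov. aspn encodes asporin, a small proteoglycan of the extracellular matrix, and its mean was 20.1 ± 1.02 FPKM (SD, n = 3) against 7.87 ± 2.54 FPKM (SD, n = 3). wipf3 belongs to a family that binds regulators of actin assembly, and its log2 fold change was 1.25 (SE 0.17, adjusted p = 0.0391). aven, an inhibitor of cell death, had a log2 fold change of 1.07 (SE 0.17, adjusted p = 0.0458).

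The DEG with the highest level among those higher in WT_Fe_Ov was LOC101173896 on chromosome 19 from 3646381 to 3648843. It had 2219, 2235 and 2156 FPKM in WT_Fe_Ov and 805, 883 and 1099 FPKM in MT_Fe_Ov (log2 fold change 1.17, SE 0.13, adjusted p = 0.0203). LOC101170382 on chromosome 22 was less even, at 208, 311 and 231 FPKM in WT_Fe_Ov and 34.2, 78.1 and 86.1 FPKM in MT_Fe_Ov. LOC101162290 on chromosome 7 had 10.2, 8.50 and 9.48 FPKM against 1.25, 2.08 and 2.31 FPKM, a log2 fold change of 2.25 (SE 0.20, adjusted p = 0.0119). All of these are protein coding by the annotation, and none of their groups overlapped.

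The 4 further genes that the naming rule selected had low levels. LOC101173225, LOC110013471 and LOC111946373 had means of 2.20, 2.25 and 3.33 FPKM in WT_Fe_Ov and of 0.505, 0.588 and 0.959 FPKM in MT_Fe_Ov. The pseudogene LOC101167313 had 7.32 ± 1.29 FPKM (SD, n = 3) against 2.31 ± 0.607 FPKM (SD, n = 3). Reads of a pseudogene can be shared with its parent gene, and this value is uncertain for that reason.

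The lncRNA DEGs were placed close together. Of 6 lncRNA DEGs among 2601 lncRNAs tested, 4 lay within 135.6 kb of chromosome 8, between 8798437 and 8933990, and all 4 were higher in WT_Fe_Ov. This region was chosen after the values were seen, and its counts are a description.

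LOC105358485, from 8890807 to 8891508, had 148, 110 and 134 counts in WT_Fe_Ov and 9, 9 and 6 counts in MT_Fe_Ov (log2 fold change 4.16, SE 0.26, adjusted p = 0.00360). LOC105354541, from 8933178 to 8933990, had 257, 242 and 255 counts against 32, 37 and 50 counts (log2 fold change 2.82, SE 0.19, adjusted p = 0.00360). LOC105358324, from 8829596 to 8853355, had 82, 40 and 83 counts against 13, 9 and 3 counts (log2 fold change 3.15, SE 0.48, adjusted p = 0.0433). The first of these was at least 110 counts in every WT_Fe_Ov library and at most 9 in every MT_Fe_Ov library. LOC110015470, from 8798437 to 8799277, had 24, 19 and 19 counts against 1 count in each MT_Fe_Ov library, too few for a fold change to be given.

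The region holds 12 tested genes, 7 lncRNAs and 5 protein coding genes. In all 7 lncRNAs each WT_Fe_Ov library was above each MT_Fe_Ov library, against 13.4% of all genes. Of the 7, 4 were called, against 0.142% of all genes in this direction. The region was chosen by these 4, so their part in both counts was fixed by the choice. None of the 5 protein coding genes was called by edgeR, and none had groups that did not overlap, although all 5 had a log2 fold change above 0. Their summed counts varied widely within each group, at 13111, 2200 and 10521 in WT_Fe_Ov and 2516, 6945 and 216 in MT_Fe_Ov. The summed counts of the 7 lncRNAs were 685, 510 and 646 in WT_Fe_Ov and 106, 65 and 81 in MT_Fe_Ov. In WT_Fe_Ov replicate 1 had the highest and replicate 2 the lowest sum of both kinds of gene, while in MT_Fe_Ov replicate 2 had the highest sum of the coding genes and the lowest of the lncRNAs. LOC105358324 spans the coding gene LOC111947749 (8835506 to 8846252). Reads were counted on exons and without strand. Whether the exons of these genes overlap was not checked, so their reads may not be fully separated.

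In the D10 testis libraries (WT_Ma_Te, wild-type XY males), the 7 lncRNAs summed to 62, 426 and 280 counts. Replicate 1 was as low as MT_Fe_Ov, whereas replicates 2 and 3 were higher although these libraries held only 7243501 and 5551651 read pairs. Whether the region differs between the fish in DNA sequence or copy number was not tested.

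**Figure D2:**
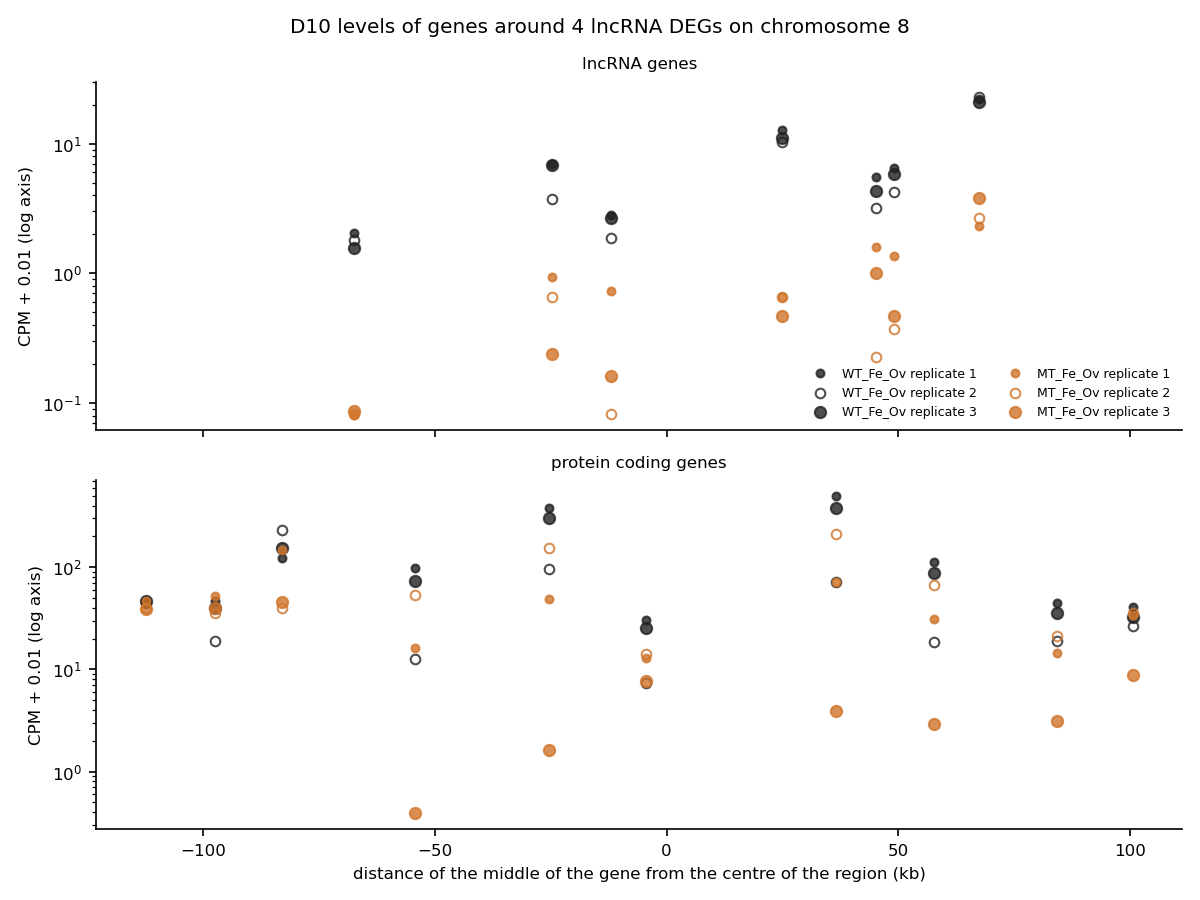
Levels in CPM + 0.01 (log axis) of the lncRNA genes (upper panel) and protein coding genes (lower panel) against the distance of each gene's middle from the centre of the chromosome 8 region in kb, with 1 point per library and 50 kb added on each side. The 3 WT_Fe_Ov libraries (black) are above the 3 MT_Fe_Ov libraries (orange) in all 7 lncRNAs, while the libraries of both groups are mixed in the coding genes between them.

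Among the other non-coding DEGs, LOC105358224, a lncRNA on chromosome 19, had 9.18, 7.40 and 8.10 FPKM in WT_Fe_Ov and 1.46, 1.66 and 2.92 FPKM in MT_Fe_Ov. LOC110015052 on chromosome 4 was the only lncRNA DEG higher in MT_Fe_Ov. It had 0.841, 1.41 and 0.910 FPKM in WT_Fe_Ov and 8.11, 6.82 and 3.36 FPKM in MT_Fe_Ov (log2 fold change -2.64, SE 0.41, adjusted p = 0.0439).

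Of the genes higher in MT_Fe_Ov, tg had the largest fold change. It encodes thyroglobulin, the protein of the thyroid follicle from which thyroid hormones are made, and lies on chromosome 16 from 31866120 to 31886324. The counts were 7, 4 and 3 in WT_Fe_Ov and 56, 88 and 86 in MT_Fe_Ov, which are low levels of 0.0558 ± 0.0242 and 0.774 ± 0.194 FPKM (SD, n = 3). Each MT_Fe_Ov library had at least 56 counts and each WT_Fe_Ov library at most 7. The log2 fold change was -3.84 (SE 0.37, adjusted p = 0.0170). Without WT_Fe_Ov replicate 1, 2 or 3, the adjusted p was 0.0539, 0.0672 or 0.182, and without MT_Fe_Ov replicate 2 it was 0.0625, within a range from 6.18e-11 to 0.182 over all settings. The testis libraries had 0.115, 0.114 and 0.124 FPKM, nearer to WT_Fe_Ov. No list of thyroid genes had been fixed, and the part of thyroid tissue in this difference was not tested.

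The liver list and the intestine list each held 1 DEG, both higher in MT_Fe_Ov. itih3, a heavy chain of the plasma inter-alpha-trypsin inhibitor that the liver secretes, had 2.20, 1.30 and 1.79 FPKM in WT_Fe_Ov and 9.09, 4.74 and 12.6 FPKM in MT_Fe_Ov. The MT_Fe_Ov libraries were all higher but spread widely, and the log2 fold change was -2.39 (SE 0.36, adjusted p = 0.0423). Over the 9 liver genes tested, 1 was called, against 0.232% of all genes in this direction. The median was -0.45 with 9 values below 0, against 48% of all genes. The median was -0.95 without WT_Fe_Ov replicate 2, and 7 values were below 0 without MT_Fe_Ov replicate 3. On library totals the summed levels overlapped, at 1994 to 3556 CPM against 3491 to 3535 CPM. This overlap rests on WT_Fe_Ov replicate 2, whose scaling factor in edgeR (TMM factor) was 1.04, against 0.908, 0.983 and 1.02 in MT_Fe_Ov. It was not judged with these factors.

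si encodes sucrase-isomaltase, which splits sugars on the intestinal brush border. Its levels were 48.1, 31.4 and 44.1 FPKM in WT_Fe_Ov and 77.7, 102 and 97.5 FPKM in MT_Fe_Ov, without overlap (log2 fold change -1.24, SE 0.18, adjusted p = 0.0414). Over the 6 intestine genes tested, 1 was called, against 0.232% of all genes in this direction, 5 had an unadjusted p under 0.05, against 10% of all genes in this direction, and the median was -1.05. Their summed levels did not overlap, at 920 to 1611 CPM in WT_Fe_Ov and 1874 to 2254 CPM in MT_Fe_Ov. Without WT_Fe_Ov replicate 2, which had the lowest sum, the median was -0.72. Beside the DEGs described next, the part of intestinal tissue was not tested.

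Other DEGs higher in MT_Fe_Ov encode proteins known from absorptive epithelia, and they are described singly, since no list of them was fixed. cdhr2, a protocadherin that links the tips of microvilli, had 22.8, 15.2 and 20.5 FPKM in WT_Fe_Ov and 49.5, 67.1 and 44.5 FPKM in MT_Fe_Ov. vill, a villin-like actin-binding protein, had 46.1, 30.3 and 42.9 FPKM against 84.3, 100.4 and 93.0 FPKM. WT_Fe_Ov replicate 2 was the lowest library in both genes and MT_Fe_Ov replicate 2 the highest, as in si. Over the 57 DEGs higher in MT_Fe_Ov, WT_Fe_Ov replicate 2 was the lowest of its group in 42 and MT_Fe_Ov replicate 2 the highest of its group in 35. Shares over all genes were not computed for these counts. WT_Fe_Ov replicate 2 also stood apart in general, at 7.86 and 4.94 times sampling noise from replicates 1 and 3.

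Peptidase genes are described next. dpep1, a membrane dipeptidase of kidney and intestine, had 12.6, 15.5 and 14.2 FPKM in WT_Fe_Ov and 52.0, 49.0 and 34.0 FPKM in MT_Fe_Ov (log2 fold change -1.77, SE 0.21, adjusted p = 0.0254). enpep, the aminopeptidase that trims angiotensin II, had 11.6, 11.4 and 11.4 FPKM against 26.3, 24.1 and 20.2 FPKM. naaladl1, a peptidase known from the small intestine, had 15.5, 12.6 and 14.1 FPKM against 30.2, 30.6 and 29.1 FPKM. The WT_Fe_Ov libraries were nearly equal in enpep, in dpep1 and enpep the highest MT_Fe_Ov library was replicate 1, and naaladl1 had the same lowest and highest libraries as si. ggt1a, a gamma-glutamyltransferase of the glutathione cycle, had means of 4.13 ± 0.539 and 12.3 ± 3.01 FPKM (SD, n = 3; log2 fold change -1.68, SE 0.24, adjusted p = 0.0409).

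Further single DEGs higher in MT_Fe_Ov encode carriers and enzymes. slc3a1 is the heavy subunit of the carrier for cystine and basic amino acids, and had 9.01, 5.78 and 9.14 FPKM in WT_Fe_Ov against 14.3, 21.0 and 17.9 FPKM in MT_Fe_Ov. abcb1, a drug efflux pump, had a log2 fold change of -1.41 (SE 0.21, adjusted p = 0.0429), and slc29a3, a nucleoside carrier, one of -1.24 (SE 0.18, adjusted p = 0.0417). cyp3a40, a cytochrome P450 that oxidises foreign compounds, had a mean of 118 ± 8.26 FPKM in WT_Fe_Ov and one of 223 ± 21.5 FPKM in MT_Fe_Ov (SD, n = 3). ddc, the decarboxylase that makes dopamine and serotonin, had 7.97, 6.99 and 7.80 FPKM against 12.8, 18.8 and 18.8 FPKM. amacr, a racemase in the breakdown of branched fatty acids, had a log2 fold change of -1.0 (SE 0.16, adjusted p = 0.0458), just past the fold threshold.

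cnn1 and anxa2 had small spreads within the groups. cnn1 encodes calponin, an actin-binding protein of smooth muscle, and had 9.70, 10.5 and 9.46 FPKM in WT_Fe_Ov and 23.6, 26.3 and 23.4 FPKM in MT_Fe_Ov (log2 fold change -1.39, SE 0.13, adjusted p = 0.0134). anxa2 encodes annexin A2, which binds membranes in the presence of calcium, and had 86.4, 94.7 and 91.4 FPKM against 194, 197 and 192 FPKM (log2 fold change -1.18, SE 0.12, adjusted p = 0.0170). The remaining genes with a symbol in this direction were sgpp1, a phosphatase of sphingosine phosphate, siat9, a sialyltransferase of glycolipids, gsk3b, a kinase of the Wnt pathway, and ms4a6a, leng9 and lrrc66. Their log2 fold changes lay between -1.39 for sgpp1 and -1.01 for gsk3b.

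The DEG with the lowest p in this direction was LOC101162393 on chromosome 15, with 14.4, 14.2 and 14 FPKM in WT_Fe_Ov and 29.8, 35.8 and 36.3 FPKM in MT_Fe_Ov (log2 fold change -1.34, SE 0.11, adjusted p = 0.00821). The DEG with the highest level was LOC101163630 on chromosome 17 from 31193777 to 31196915. It had 932, 758 and 916 FPKM in WT_Fe_Ov and 3377, 2058 and 1867 FPKM in MT_Fe_Ov (log2 fold change -1.59, SE 0.27, adjusted p = 0.0479). The 6 further LOC genes that the naming rule selected in this direction had log2 fold changes between -1.94 (LOC101167317) and -1.61 (LOC101171425). Among them, LOC101163907 had 2.49, 2.52 and 2.90 FPKM against 9.15, 11.4 and 7.73 FPKM, and LOC101159739 had 41.8, 24.8 and 37.9 FPKM against 115, 130 and 72.8 FPKM.

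mc6ast2, an astacin-type metalloprotease gene, was nearly constant in WT_Fe_Ov at 357, 354 and 363 FPKM and reached 1190, 883 and 852 FPKM in MT_Fe_Ov (log2 fold change -1.54, SE 0.18, adjusted p = 0.0276). MT_Fe_Ov replicate 1 was the highest library here, as it was in LOC101163630. It was also the highest for cpb1, the pancreatic carboxypeptidase B, with 760, 386 and 653 FPKM in WT_Fe_Ov and 1548, 1098 and 1078 FPKM in MT_Fe_Ov. cpb1 was not a DEG (log2 fold change -1.15, SE 0.28, adjusted p = 0.0951). The exocrine pancreas list had 23 genes, of which 3 were found, cpb1 among them. Their median was -0.46 (-0.30 without WT_Fe_Ov replicate 2 and -0.75 without replicate 3) and none was called. Their summed levels did not overlap, at 698 to 1339 CPM against 1814 to 2535 CPM. Most of each sum was cpb1, so the sums largely repeat the difference of this gene. The part of pancreatic tissue in the differences was not tested.

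**Figure D3:**
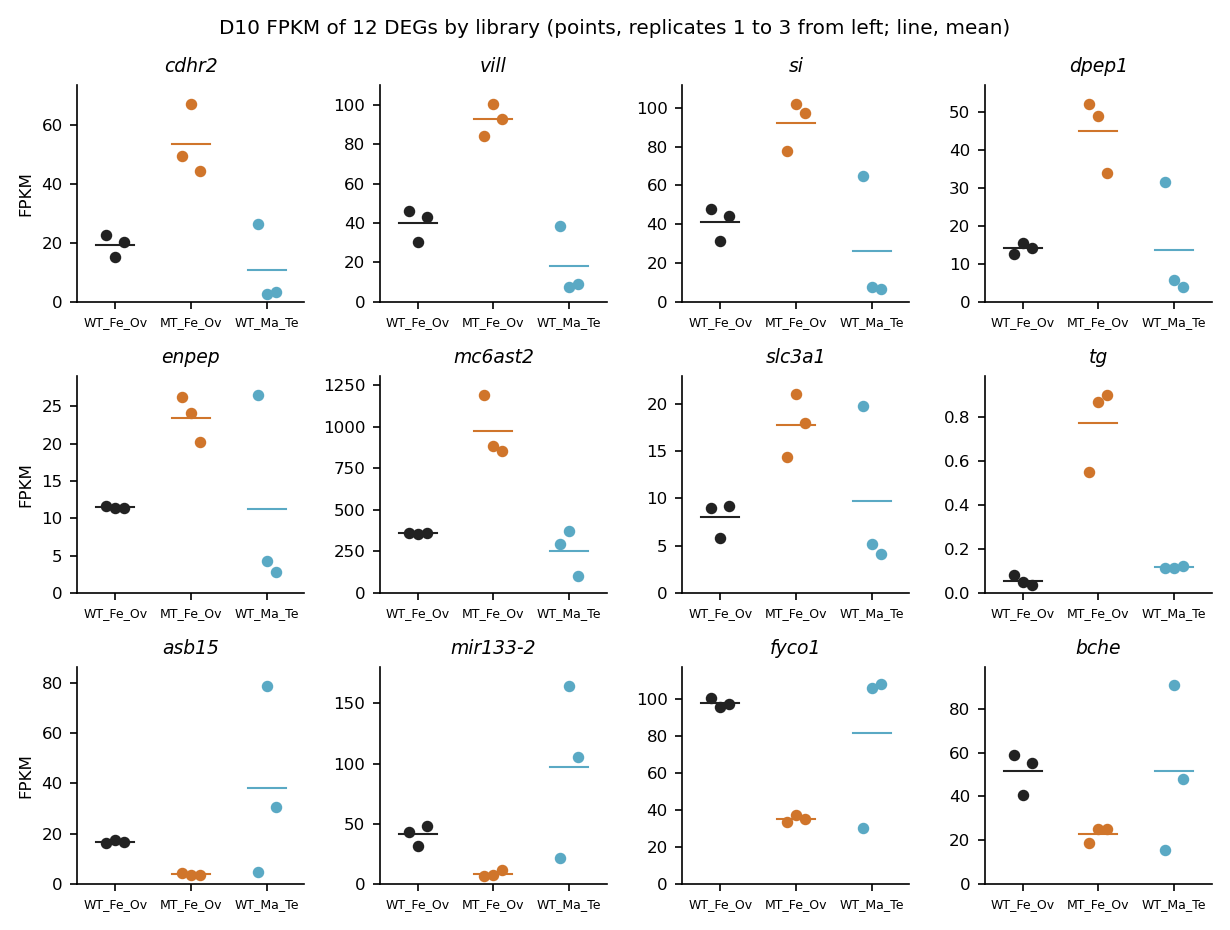
FPKM of 12 DEGs in the 9 D10 libraries, with 1 point per library (replicates 1 to 3 from left to right), lines at the group means, and axes that start at 0. The 8 genes of the upper rows are higher in every MT_Fe_Ov library than in every WT_Fe_Ov library and the 4 genes of the lowest row are lower, and the WT_Ma_Te libraries, which entered no test here, spread more widely than either ovary group in most panels.

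The testis libraries put these levels in the context of their own spread. Of the 57 DEGs higher in MT_Fe_Ov, testis replicate 1 lay within the range of the 6 ovary libraries in 44, but replicates 2 and 3 lay below all 6 in 52 and 54. Of the 35 DEGs higher in WT_Fe_Ov, testis replicates 2 and 3 lay above all 6 ovary libraries in 22 and 20, and replicate 1 lay below all 6 in 15. The testis replicates thus differed from each other in many of these genes, and no test of the testis was made. Shares over all genes were not computed for these counts. The testis pairs were between 19.9 and 40 times sampling noise apart, so the differences need not be particular to the DEGs.

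Genes of sex differentiation were read whether or not they differed, and none of those found was a DEG. gsdf had 1.86, 1.47 and 1.44 FPKM in WT_Fe_Ov and 3.47, 3.74 and 2.59 FPKM in MT_Fe_Ov. Each MT_Fe_Ov library was above each WT_Fe_Ov library, and the log2 fold change was -1.13 (SE 0.24, adjusted p = 0.0738). DESeq2 called it with an adjusted p of 0.00539, as did edgeR without MT_Fe_Ov replicate 3 with one of 0.0450, and over all settings the adjusted p ranged from 0.00539 to 0.477. In the testis libraries gsdf had 10.4, 12.9 and 2.90 FPKM, so that the lowest of them lay within the range of MT_Fe_Ov.

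amh encodes anti-Müllerian hormone, which in medaka is made by the supporting cells of both sexes and restrains germ cell proliferation. It had 1.80, 1.58 and 1.84 FPKM in WT_Fe_Ov and 0.824, 1.02 and 0.910 FPKM in MT_Fe_Ov. The groups did not overlap and the difference went the other way from gsdf, with a log2 fold change of 0.84 (SE 0.19, adjusted p = 0.0813). The difference between the 2 genes was not tested. Over the 7 genes of testicular somatic cells found, the median was -0.33 (-0.20 without MT_Fe_Ov replicate 2 and -0.50 without replicate 1) and none was called. Over the 10 genes of ovarian somatic cells it was -0.09, with none called, and lay between -0.15 (without WT_Fe_Ov replicate 1 or MT_Fe_Ov replicate 3) and 0.13 (without MT_Fe_Ov replicate 2). foxl2, a transcription factor of the ovarian granulosa cells, had 1.02, 0.805 and 1.06 FPKM against 0.369, 1.30 and 1.31 FPKM, with overlap of the groups (log2 fold change -0.10, SE 0.47, adjusted p = 0.933). The sign of foxl2 turned when WT_Fe_Ov replicate 2 or MT_Fe_Ov replicate 2 or 3 was left out.

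Germ cell genes were mostly above 0 without any call. Of the 23 tested, 21 had a log2 fold change above 0, against 52% of all genes, and 7 of these had an unadjusted p under 0.05, against 8.82% of all genes in this direction. The median was 0.70. The summed levels were 117, 63.1 and 101 CPM in WT_Fe_Ov and 47.7, 61.8 and 53.9 CPM in MT_Fe_Ov, so that WT_Fe_Ov replicate 2 lay just above the highest MT_Fe_Ov library. This order holds for library totals only. The TMM factors were 1.04 for WT_Fe_Ov replicate 2 and 0.983 for MT_Fe_Ov replicate 2, and dividing by them would reverse it. The median was 0.29 without WT_Fe_Ov replicate 1 and between 0.58 and 0.86 without any other library.

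ddx4, the RNA helicase Vasa of germ cells, had 12.3, 4.40 and 10.4 FPKM in WT_Fe_Ov and 3.46, 4.94 and 3.18 FPKM in MT_Fe_Ov. Replicate 2 of WT_Fe_Ov lay below replicate 2 of MT_Fe_Ov, and the log2 fold change was 1.14 (SE 0.36, adjusted p = 0.156). DESeq2 called it with an adjusted p of 0.0418, as did 1 edgeR fit of the 18 ovary libraries with one of 0.0213, and over all settings it ranged from 0.0213 to 0.423. figla, a transcription factor that oocytes need to form follicles, had 58, 9 and 42 counts against 14, 29 and 20 counts (adjusted p = 0.418). bmp15 and nanos3, which act in the oocyte and in germ cells, had at most 5 and 7 counts in any of the 6 libraries, and no difference was detectable at such low counts.

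No gene of the lists of sterol and fatty acid synthesis and of immediate early and stress genes was called. Of 22 genes of cholesterol and fatty acid synthesis, 20 had a log2 fold change below 0, against 48% of all genes. With that sign, 15 had an unadjusted p under 0.05, against 10% of all genes, and the median of the list was -0.99. hmgcs1, an early enzyme of sterol synthesis, had 11.9, 12.6 and 11.4 FPKM in WT_Fe_Ov and 17.4, 33.2 and 101 FPKM in MT_Fe_Ov (log2 fold change -2.13, SE 0.53, adjusted p = 0.0955). The sums of the list were 673, 798 and 702 CPM against 765, 1082 and 2253 CPM, and the WT_Fe_Ov replicates were alike while those of MT_Fe_Ov were spread. The overlap of these sums holds for library totals only. The TMM factors were 1.04 for WT_Fe_Ov replicate 2 and 0.908 for MT_Fe_Ov replicate 1, and dividing by them would remove the overlap. Without MT_Fe_Ov replicate 3 the median was -0.59 and 18 of 22 values were below 0.

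Of 22 immediate early and stress genes, 19 were below 0, against 48% of all genes, and 6 of these had an unadjusted p under 0.05, against 10% of all genes. The median was -0.35 (-0.22 without MT_Fe_Ov replicate 1), with sums of 1483 to 1999 CPM against 2064 to 2158 CPM. fosb, a transcription factor induced within minutes of a stimulus, had 2.20, 1.82 and 2.23 FPKM in WT_Fe_Ov and 20.3, 4.23 and 6.94 FPKM in MT_Fe_Ov (adjusted p = 0.0816). egr1, another such factor, had 13.3, 25.8 and 16.3 FPKM against 37.1, 33.3 and 53.8 FPKM (adjusted p = 0.0699). In neither gene did the groups overlap, and 12.3% of all genes had every MT_Fe_Ov library above every WT_Fe_Ov library. fosb, egr1, hmgcs1, cpb1 and mbp are not DEGs and lie outside the naming rule, and they were chosen after their values were seen. The part of the time between dissection and lysis in the levels of the stress genes, or in those of the DEGs, was not tested.

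The remaining lists held no DEG. Of 17 genes of fasting, gluconeogenesis and fatty acid oxidation, 12 were below 0, against 48% of all genes. The sums of this list did not overlap, at 2243 to 2604 CPM in WT_Fe_Ov and 2729 to 2836 CPM in MT_Fe_Ov. Of 11 neuronal and glial genes, 10 were above 0, against 52% of all genes. Their median was 0.25 (0.13 without MT_Fe_Ov replicate 1), with sums of 1273 to 1428 CPM against 845 to 1223 CPM. mbp, the myelin basic protein, was the exception, with means of 1.75 FPKM in WT_Fe_Ov and 4.08 FPKM in MT_Fe_Ov (log2 fold change -1.33, SE 0.33, adjusted p = 0.0949). The 8 genes of the head found in the table summed to at most 5.19 CPM, a low level in tissue from which the head had been removed. In the lists of bone and cartilage, kidney, red and white blood cells, epidermis, pigment cells, endocrine pancreas, interferon response, circadian clock and cell division, the summed levels of the groups overlapped. Of the 8 bone and cartilage genes, 6 were above 0, against 52% of all genes. With that sign, 4 had an unadjusted p under 0.05, against 8.82% of all genes. The median of this list was 0.43 (0.18 without MT_Fe_Ov replicate 1). esr1 was the single gene found of the vitellogenin and egg envelope list, and its groups overlapped too.

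**Figure D4:**
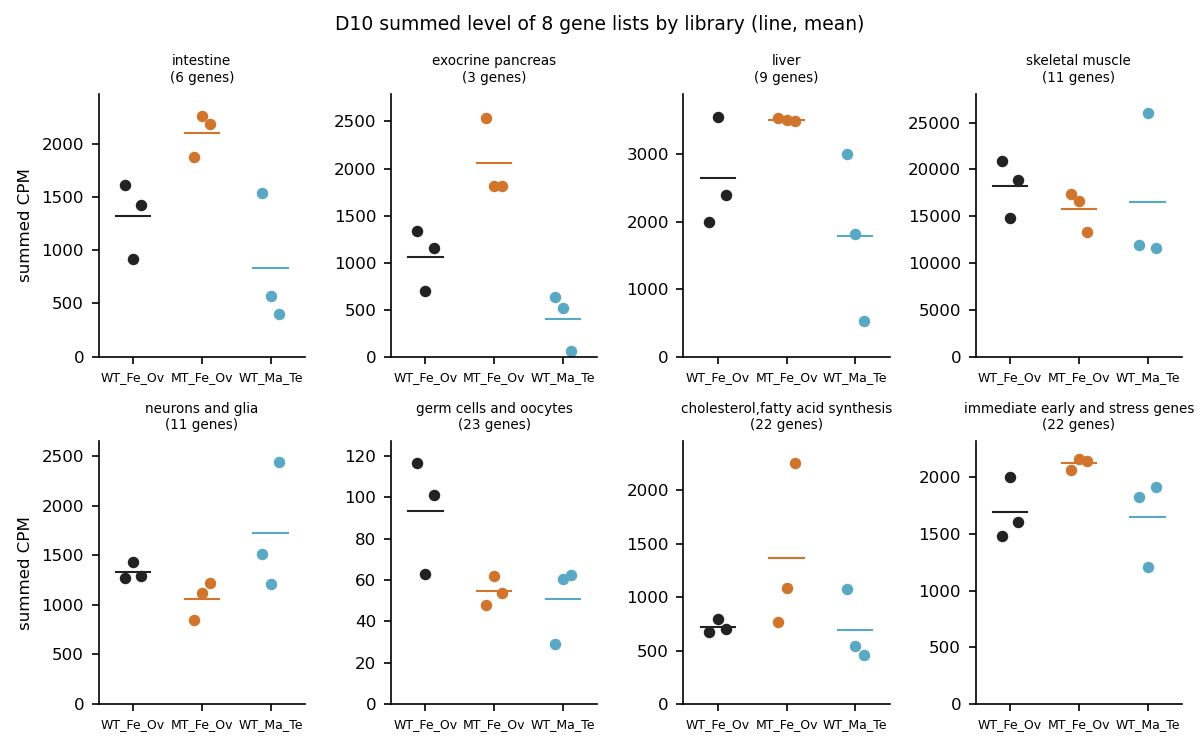
Summed CPM of 8 gene lists in the 9 D10 libraries, as counts over library totals with no TMM factors. There is 1 point per library, with lines at the group means, axes that start at 0 and the number of genes found in each list. The sums of the intestine, exocrine pancreas (mostly cpb1) and stress lists are higher in every MT_Fe_Ov library than in every WT_Fe_Ov library. Those of the germ cell and neuron lists are lower, and those of liver, muscle and sterol synthesis overlap. The separation of the germ cell sums and the overlap of the sterol synthesis sums hold for library totals only.

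The sex chromosomes did not stand out by number of DEGs. Chromosome 1, the sex chromosome of medaka, held 6 DEGs among 1341 genes tested, or 0.447%, against 0.374% over all genes and a range over the 24 chromosomes from 0.0827% on chromosome 17 to 0.68% on chromosome 3. Of the 6, 5 were higher in MT_Fe_Ov, among them cyp3a40 (21981856 to 21988866), LOC101164281 and LOC101164130, and LOC101169757 was higher in WT_Fe_Ov. The median log2 fold change of all genes on chromosome 1 was -0.001. LOC105354246 on this chromosome, chosen after its values were seen, was not a DEG in edgeR (adjusted p = 0.0626). It had 4, 0 and 4 counts in WT_Fe_Ov, 26, 27 and 25 in MT_Fe_Ov and 15, 63 and 52 in the testis libraries. Whether its level follows the Y chromosome was not tested. Outside the chromosome 8 region, 6 pairs of DEGs started within 250 kb of each other. They include ms4a6a and tg, 20.2 kb apart on chromosome 16 and both higher in MT_Fe_Ov, and bche and si, 114.8 kb apart on chromosome 13 and different in direction.

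The same contrast was read in the independent libraries of the later stages. Most D10 DEGs had low levels there, as given below. For those genes, the absence of a repeated call or a changed sign says little about the D10 difference. The D30 libraries held 6301347 to 10129588 counted read pairs in MT_Fe_Ov and 14855932 to 15297992 in WT_Fe_Ov. Depth and group thus cannot be told apart at D30 either. At D30, 0.881% of 23842 genes were DEGs higher in WT_Fe_Ov and 0.801% were higher in MT_Fe_Ov, and at D120 0.0373% and 0.0663% of 24122 genes. Of the 83 D10 DEGs tested at D30, edgeR called 0 in the same direction and 5 in the opposite one. At an unadjusted p under 0.05, 1 had the same and 14 the opposite sign. Of all 23357 genes tested at both stages, 2104 and 2566 did. Of the 83, 34.9% kept their sign, against 47.4% of all these genes. Of the 88 tested at D120, edgeR called 0 in either direction. At an unadjusted p under 0.05, 3 had the same sign and 7 the opposite one, and of all 23633 genes tested at D10 and D120, 799 and 870 did. Of the 88, 52.3% kept their sign, against 49.6% of all these genes.

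The tissue differed between the stages as well, and D10 samples held tissue around the gonad. The median of the mean levels of the 35 DEGs higher in WT_Fe_Ov was 19.9 FPKM in WT_Fe_Ov at D10, 0.209 FPKM at D30 and 0.169 FPKM at D120. For the 57 DEGs higher in MT_Fe_Ov, it was 30.0 FPKM in MT_Fe_Ov at D10, 0.238 FPKM at D30 and 0.312 FPKM at D120. At D30, 26 of the 35 and 39 of the 57 had means under 1 FPKM in these groups. LOC105358485, LOC105354541 and LOC105358324 of the chromosome 8 region were at 0 in all 6 ovary libraries of D30.

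The 5 genes called in the opposite direction at D30 were mc6ast2, LOC101163630, LOC101174455, LOC101174676 and LOC101164281, all higher in MT_Fe_Ov at D10. At D30, mc6ast2 had 58.2 to 110 FPKM in WT_Fe_Ov and 0.834 to 2.29 FPKM in MT_Fe_Ov (log2 fold change 5.86, SE 0.37, adjusted p = 0.00179). LOC101163630 had 438 to 599 FPKM against 2.63 to 18.8 FPKM (log2 fold change 5.93, SE 0.67, adjusted p = 0.00782). The groups were far apart in both genes. At this stage cpb1 had 75.6 to 132 FPKM in WT_Fe_Ov and 0.263 to 2.48 FPKM in MT_Fe_Ov (log2 fold change 6.63, SE 0.54, adjusted p = 0.00420). The part of pancreatic tissue in these D30 differences was not tested.

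A change of the contrast between stages was tested directly in 1 fit of the 18 ovary libraries. The contrast differed between D10 and D30 in 6.83% of all 25238 genes (1725 genes) and in 33 of the 83 DEGs tested at both stages, and between D10 and D120 in 0.333% of all genes (84 genes) and in 11 of the 88 DEGs. Since the DEGs were chosen at D10, the D10 side of this difference was fixed by the choice. With DESeq2 in place of edgeR, 5 of the 415 genes called at D10 were called in the same direction at D30, and 1 at D120. The shares of all genes that DESeq2 called at D30 and D120 were not computed, so these counts cannot be set against a background. These genes were chosen after their values were seen. At D30 they were tmprss15, the enteropeptidase that activates trypsin, hsd17b3, a dehydrogenase known from mammals for making testosterone, and LOC105354246, LOC111946471 and LOC105354170. tmprss15 had mean levels of 5.84 FPKM in WT_Fe_Ov and 15.3 FPKM in MT_Fe_Ov at D10 and of 12 and 28.9 FPKM at D30. hsd17b3 had 12.4 and 5.12 FPKM at D10 and 3.58 and 1.01 FPKM at D30, higher in WT_Fe_Ov both times. LOC105354246 on chromosome 1 had means of 0.465 FPKM in WT_Fe_Ov and 4.72 FPKM in MT_Fe_Ov at D30, with 8.03 FPKM in WT_Ma_Te. At D120 its ovary means were 1.53 and 3.07 FPKM, and edgeR did not call it (adjusted p = 0.893). The gene at D120 was slc3a1, with 3.46 FPKM in WT_Fe_Ov and 9.84 FPKM in MT_Fe_Ov at that stage. In edgeR at D10, only slc3a1 of these 6 genes was a DEG.

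**Figure D5:**
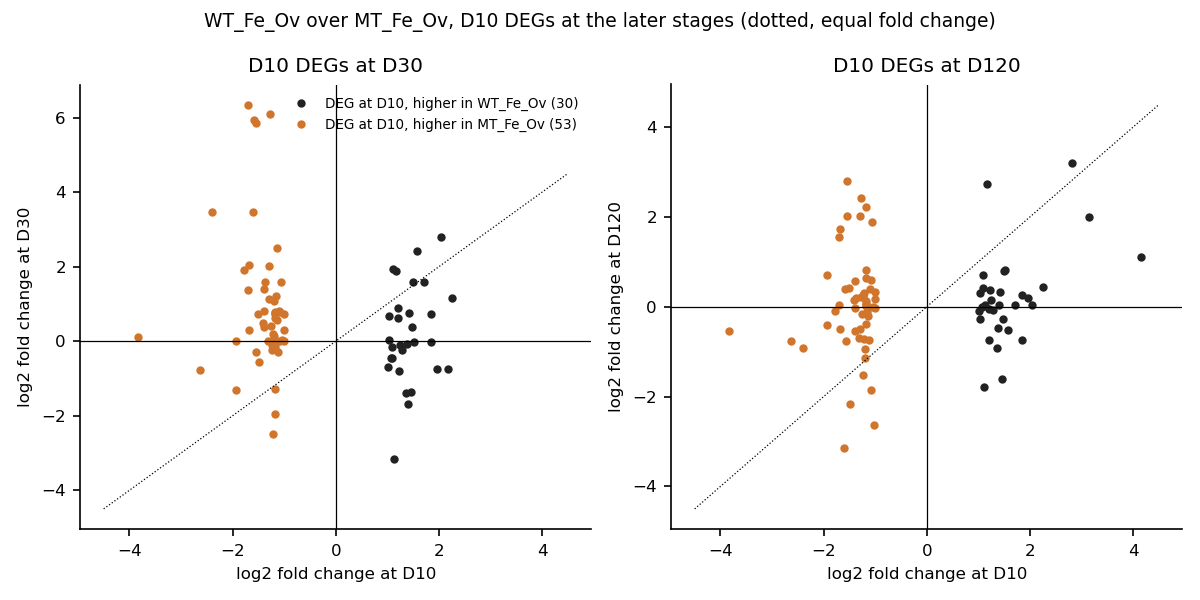
Log2 fold change (WT_Fe_Ov over MT_Fe_Ov) of the D10 DEGs at D30 (left) and at D120 (right) against that at D10, with 1 point per gene tested at both stages and a dotted line of equal values. At D30, 83 genes are shown, of which 34.9% kept their sign, and 4 genes higher in MT_Fe_Ov at D10 stand near 6 in the opposite direction.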

How the data were processed

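Poly(A) RNA-seq libraries of 3 groups at 3 stages were read by their labels, and each group, replicate number and column was taken from the labels. The deposited table gives unnormalized counts for 26099 genes (read pairs on exons), which the authors made with featureCounts after trimming (fastp) and alignment by STAR on ASM223467v1. The counting used no strand. For the FPKM values, the authors used the fpkm function of DESeq2, and in the files these values equal the count over the library total times a constant of the gene. Of these genes, 9 had symbols that read as dates, and they are not named here. The range of count totals is given in the report. In the least deep of the 6 libraries, 3 counts equal 0.281 CPM, a floor that covers counting error only.

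The 24605 genes with any count in the 6 libraries were tested, which left out 1494 genes, with edgeR 4.0.16 (limma 3.58.1, R 4.3.3), TMM factors, glmQLFit and glmQLFTest, with Benjamini-Hochberg adjustment over all genes. The study's methods name DESeq2, and DESeq2 1.42.0 was an alternative. Only the 2 groups compared entered the fit, since the testis libraries of D10 vary more. The standard error (SE) was derived from the fold change and the F statistic of its test, as the ratio of the first to the root of the second. The summed CPM of the gene lists and the CPM of the chromosome 8 region are counts over library totals, without TMM factors. CPM scaled by the TMM factors were used to judge whether the groups overlapped in a single gene. The mean level in log2 CPM that is plotted against the fold change comes from edgeR with these factors. Tables and figures were made with matplotlib 3.10.9, pandas 2.3.3, scipy 1.17.1 and numpy 2.4.6 under Python 3.11.15. The test was also run on simulated counts, drawn with the spread that edgeR estimated from the 6 libraries. This checks that the code runs as meant and says nothing on whether the calls made here are right.

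The members, the lists of marker and pathway genes and the tests were chosen with earlier results of these data known. Named genes were, in each direction, the 12 DEGs with the largest absolute log2 fold change among those with groups that did not overlap and 50 or more counts on average in the group where they were higher, DEGs of a list, DEGs called again in the same direction later, gsdf, amh, figla, foxl2, bmp15, nanos3, ddx4 and cyp19a1 (no symbol found), and the DEG with the highest mean FPKM. Alternatives were DESeq2, other thresholds, filters and scalings, the replicate number as a block, fits with more groups and fits without each library. After the values were seen, the lists were also summarised without each library. No sequences were printed.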

Additional observations from a re-analysis of the deposited data

Results flagged for a closer look

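The contrast of WT_Fe_Ov over MT_Fe_Ov differed between D10 and a later stage in 7 of the named genes, in the interaction term of 1 edgeR fit of the 18 ovary libraries. Between D10 and D30 the log2 difference of the contrasts was -3.94 for tg (adjusted p = 0.000453), -3.65 for dpep1 (0.00231), -8.03 for LOC101174676 (6.54e-06), -3.69 for LOC101175416 (0.00076) and -7.49 for LOC101163630 (6.81e-05). Between D10 and D120 it was -3.28 for tg (adjusted p = 0.0249) and -3.40 for LOC101175416 (0.0105). These genes were selected for a difference at D10, so the D10 side of each value was fixed by the choice.

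The sex genes amh and ddx4, which were named whatever their values, also differed between D10 and D30, by 1.30 for amh (adjusted p = 0.000473) and by 1.77 for ddx4 (adjusted p = 0.00594). Both had higher means in WT_Fe_Ov at D10 and higher means in MT_Fe_Ov at D30, where amh had 19.2 and 25.1 FPKM and ddx4 had 189 and 275 FPKM in the 2 groups. At D30, ddx4 had a log2 fold change of -0.60 (adjusted p = 0.0342) and amh one of -0.45 (adjusted p = 0.0651).

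In the testis libraries, which entered no comparison, 2 DEGs had single levels far above the ovary. LOC101173225 had 0.446, 22.9 and 7.56 FPKM in WT_Ma_Te replicates 1 to 3, against at most 2.41 FPKM in the ovary libraries. LOC105358224 had 126, 2.54 and 0.207 FPKM, against at most 9.18 FPKM in the ovary, so that a single testis library was above it.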

How the results depend on the processing

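The direction of all 92 DEGs was kept in every setting run, and the counts were not. The direction was largely fixed in advance, since the groups did not overlap in any DEG. DESeq2 gave 415 DEGs (149 higher in WT_Fe_Ov and 266 in MT_Fe_Ov), no fold threshold 187 (67 and 120) and 1 fit of the 18 ovary libraries 263 (105 and 158). An adjusted p of at most 0.01 gave 5 (4 and 1), a fold threshold of 2 on the log2 scale gave 11 (8 and 3) and 1 fit of all 27 libraries 15 (11 and 4). Library totals gave 105, of which 60 were higher in WT_Fe_Ov. Without 1 library, counts ranged from 0 (without WT_Fe_Ov replicate 3) to 195 (without MT_Fe_Ov replicate 3), from 0 to 62 higher in WT_Fe_Ov and from 0 to 141 higher in MT_Fe_Ov. DEGs shared with D30 were 5 with DESeq2, and 0 to 1 without 1 library (LOC105354455, without MT_Fe_Ov replicate 3), and those shared with D120 were 1 with DESeq2. Shares over all genes were not computed for the DESeq2 counts. The log2 fold change of foxl2 ranged from -0.48 (without MT_Fe_Ov replicate 1) to 0.146 and turned to 0.00288 without WT_Fe_Ov replicate 2, to 0.146 without MT_Fe_Ov replicate 2 and to 0.106 without MT_Fe_Ov replicate 3. The cause of these changes was not tested, other than that a stricter or looser threshold calls fewer or more genes by construction.

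With the replicate number as a block, 4 DEGs remained (3 and 1), namely asb15, LOC105358485, LOC105354541 and LOC101174676. Equal numbers were not taken as pairs, since the correlations of the deviations of same-numbered libraries were 0.01, 0.14 and 0.06. Low counts limited bmp15 and nanos3, which had at most 5 and 7 counts in any of the 6 libraries.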
